A study of Mus musculus with 25 samples.

Results

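Expression 3 days after eccentric contraction injury of a mouse leg muscle was compared with expression 1 day after the same injury. Arrays were taken by their titles: 3 of the 25 arrays carried the label contraction at 3 days (samples 435, 449 and 467) and 2 the label contraction at 1 day (samples 421 and 463), 5 arrays in all. The muscle was the tibialis anterior, a fast muscle at the front of the lower leg, taken from female C57BL/6J mice aged 2 to 3 months with no transgene or deletion named in the labels. The injury consisted of 150 lengthening contractions in the living animal, so that the muscle was stretched while it was active. The other groups of the study were the same injury at 6 h and 7 days, a freeze injury by a 6 mm steel probe at dry ice temperature held for 10 s at the same 4 times, and 3 uninjured controls of the same strain, sex and age. Each array measured total RNA of whole muscle, and whether 2 samples came from 1 mouse is not stated, so that p-values measure only the spread between samples. In whole muscle, a change in the number of cells of a type and a change in RNA per cell cannot be told apart.

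Eccentric contraction damages sarcomeres and the fibre membrane. Damaged fibres first express immediate early genes, which encode transcription factors made within minutes of a stimulus, and heat shock genes, whose chaperones refold or remove damaged proteins. Blood monocytes later enter the muscle and become macrophages that clear debris, while satellite cells, the stem cells of muscle, divide, switch on myogenin and fuse into new fibres that pass through an embryonic set of contractile proteins. The interval between 1 and 3 days covers the turn between these phases.

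Values are deposited signals without unit, and differences are given as log2 of signal plus 13, 3 days minus 1 day, ± SE, from a linear model of the 14 contraction and control arrays. Adding 13 understates the differences of dim genes. Signals at 3 days are given for samples 435, 449 and 467 in that order, and at 1 day for samples 421 and 463. Calls are at an adjusted p under 0.05, and "rose" and "fell" are used only of called probe sets. The array scaling was even, with a trimmed mean signal of 150.095 to 150.102 on the 3-day arrays and 150.105 to 150.111 on the 1-day arrays. Correlations over all probe sets were 0.949 to 0.965 within the 3-day group and 0.961 within the 1-day group, against 0.904 to 0.947 between the groups. The ratio of 3′ to 5′ actin probe sets, a measure of RNA integrity and of how far labelling ran along the transcript, was 0.923 to 1.213 at 3 days, against 0.617 to 0.641 at 1 day and 0.56 to 0.595 in controls. It thus differed between the groups compared, and its part in the differences below was not tested. The same ratio for Gapdh was 0.923 to 1.116 at 3 days and 0.861 to 0.942 at 1 day. The freeze sample 436, labelled 3 days, stood apart from its group, with correlations within that group between 0.8 and 0.976. Its mean correlation was 0.949 with the 3 uninjured controls, against 0.813 for each of the other 3-day freeze samples, so that it lay nearer to uninjured muscle than to its own group. It entered the comparison with freeze, also given without it, and the fits of all 25 arrays.

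Of 9033 probe sets tested, 630 (6.97%) were called between 3 days and 1 day. Of these, 382 (4.23%) were higher at 3 days and 248 (2.75%) were lower, with 309 and 169 of them changed at least 2-fold. The median difference over all 6630 genes tested was -0.02. In 1752 probe sets (19.4%) all 3-day arrays lay above both 1-day arrays, and in 1859 (20.6%) they lay below both. For a single value, the smallest two-sided p that an exact permutation of 3 against 2 arrays can give is 0.2, so calls rest on the model across all probe sets. Against the controls, 1817 probe sets (20.1%) were called at 3 days and 279 (3.09%) at 1 day, in comparisons that share the 3 controls and differ in the number of arrays. No gene had probe sets called in both directions. Values below are of the brightest probe set of a gene, and its other probe sets were not always called. For instance, 1 of 2 probe sets was called for Fos, Hsp90aa1, Srxn1, Gpd1, Lyz2, C1qb, Csf1r, Adgre1, H2-DMa, Stmn1 and Tubb2a. For Atf3 and Sirpa 2 of 3 were called. In the fit of all 25 arrays, which includes sample 436, calls between 3 days and 1 day numbered 31 higher and 79 lower. Without the 1-day array 463 they numbered 99 and 55.

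The 12 largest falls were led by chaperones and stress transcription factors, and the 12 largest rises by genes of macrophages and of denervated or regenerating fibres. Only called genes changed at least 2-fold, with every 3-day array beyond both 1-day arrays, could enter these 12. The falls, in order, were Dnajb1, Hspa1b, Dnajb4, Ccn1, Phlda1, Mmp10, Fos, Atf3, Hspa1a, Gadd45g, Nfil3 and Dnaja1, with differences between -4.68 and -2.63. The rises were Apoe, Chrna1, Chrng, Ctss, Mmp12, Lgals3, Lyz2, C1qb, Tyrobp, Tubb2a, Sirpa and C1qa, with differences between 5.36 and 2.74. The heat map of these genes over the 14 arrays shows that the falling genes stood high at 6 h and 1 day, and most rising genes stood highest at 3 days and lower again at 7 days.

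**Figure D1:**
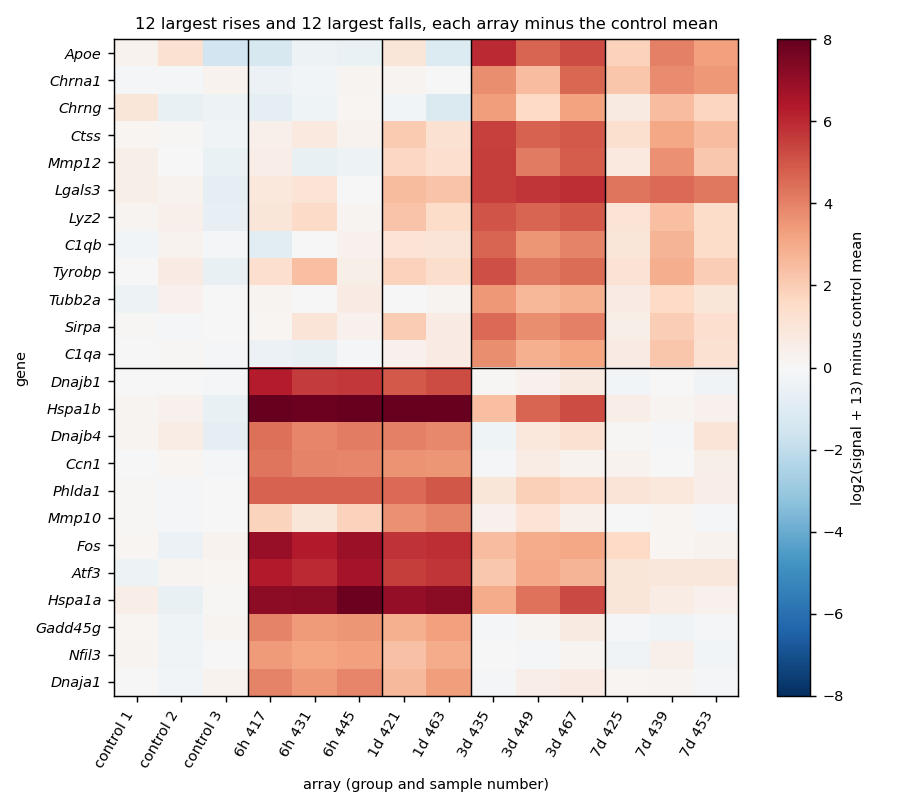
Each row is a gene and each column an array, ordered by time from control to 7 days, and colour is log2(signal + 13) minus the mean of the 3 controls. The upper 12 genes, led by Apoe (5.36 between 3 days and 1 day), are red at 3 days, and the lower 12, led by Dnajb1 (-4.68), are red at 6 h and 1 day.

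The heat shock genes fell together. Of 27 listed heat shock proteins and chaperones, 23 were on the array, 21 were tested, and 14 fell, which is 66.7% of those tested against 2.75% of all probe sets. All 21 tested members had lower means at 3 days, and 0 rose by limma, with 0 higher at an unadjusted p under 0.05. Their median difference was -1.57, against -0.02 over all genes tested. Dnajb1, which stimulates the ATPase of the inducible chaperone Hsp70, had signals of 70, 85.8 and 113 at 3 days, against 2316 and 2873 at 1 day and 64.8, 66.4 and 58.8 in controls. The 3-day arrays lay close to the controls and far below both 1-day arrays. The difference was -4.68 ± 0.23 (adjusted p = 8.01e-09), or 25.7-fold lower at 3 days, and that between 3 days and control was 0.41 (adjusted p = 0.192).

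Hspa1b and Hspa1a encode inducible Hsp70 and are near-identical copies, so that probe sets of either may bind RNA of both and their values cannot be fully separated. Hspa1b signals were 207, 1037 and 1552 at 3 days, against 10516 and 10940.3 at 1 day and 36.4, 41.1 and 14.5 in controls. Hspa1a signals were 683, 1763 and 3453 at 3 days, against 11635 and 13133 at 1 day and 112, 45.2 and 80.2 in controls. Both genes were lower on every 3-day array than on either 1-day array, with sample 435 lowest, yet no 3-day array came down to control level. Lying below both 1-day arrays was a condition of the list of largest falls, to which both genes belong. Hspa1b differed by -3.91 ± 0.54 (adjusted p = 0.000424) and Hspa1a by -2.93 ± 0.47 (adjusted p = 0.00113). Against control, Hspa1b was still 4.09 higher at 3 days on the log2 scale (adjusted p = 2.46e-05), and Hspa1a 4.21 higher (adjusted p = 5.4e-06).

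Among other chaperones, Dnajb4, a partner of Hsp70, had 91.3, 225 and 298 at 3 days, against 2136 and 1863 at 1 day, a difference of -3.34 ± 0.44 (adjusted p = 0.0003). Dnaja1, another partner of the same family, had 228, 361 and 402 at 3 days and 1586 and 2665 at 1 day, a difference of -2.63 ± 0.27 (adjusted p = 3.4e-05). Bag3, a co-chaperone that sends damaged sarcomere proteins to autophagy, had 664, 1014 and 1089 at 3 days and 3370.4 and 5809.5 at 1 day, a difference of -2.28 ± 0.31 (adjusted p = 0.000424). In these 3 genes the groups did not overlap, which in this direction held for 20.6% of all probe sets. For Dnajb4 and Dnaja1 it was also a condition of the list of largest falls. Hsp90aa1, the inducible Hsp90, had 2017, 1249 and 2278 at 3 days, against 7166 and 8869 at 1 day and 184, 212 and 306 in controls, a difference of -2.15 ± 0.36 (adjusted p = 0.00167). Like Hsp70, it was still above control at 3 days, by 2.90 (adjusted p = 1.59e-05). Hspa8, the constitutive Hsc70, had 1628, 1708 and 1979.9 at 3 days, against 5259 and 5439 at 1 day and 1459.8, 2336 and 1539 in controls, a difference of -1.59 ± 0.24 (adjusted p = 0.000857), and its 3-day arrays lay within the range of the controls. The remaining falls were of Hsph1, Stip1, Hspa1l, Hspb2, Hspe1 and Serpinh1, between -1.92 and -1.13. Cryab, a small heat shock protein of the Z-disc, had 1998, 2343 and 2582 at 3 days and 4521 and 3662 at 1 day and was not called (adjusted p = 0.102), and the mitochondrial Hspa9 differed by -0.02 ± 0.21. The mean log2 level of the 21 tested members was 9.28, 9.45 and 9.76 at 3 days (samples 435, 449 and 467), against 11.07 and 11.29 at 1 day and 8.53 to 8.57 in controls.

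**Figure D2:**
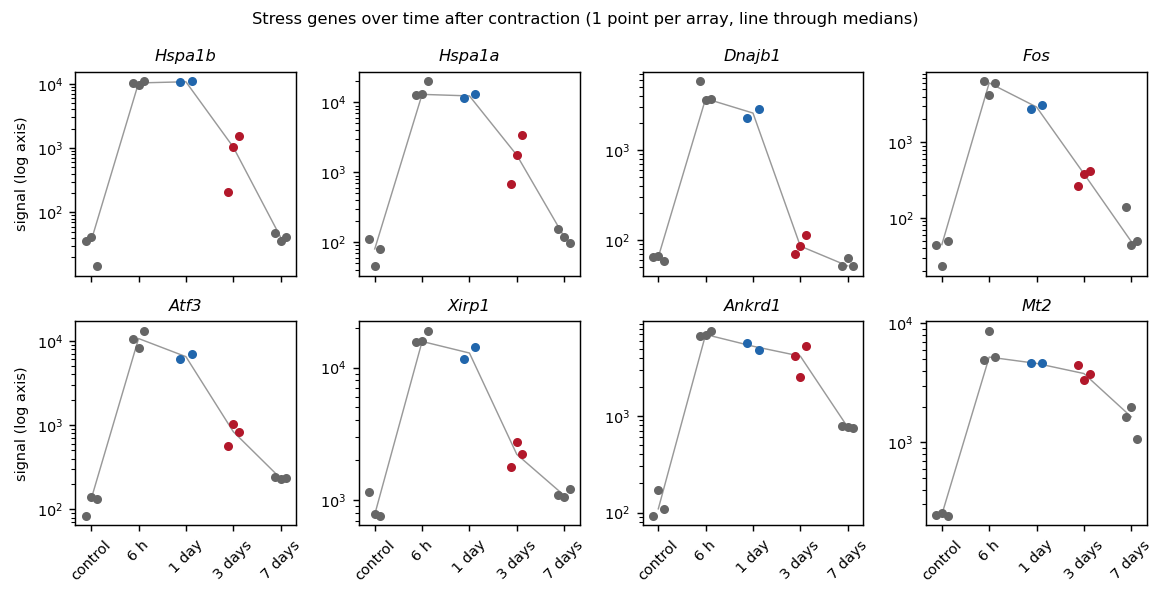
Signals of 8 stress genes on a log axis, 1 point per array, in controls and at 6 h, 1, 3 and 7 days after contraction, with a line through group medians. Dnajb1 at 3 days (70.0 to 113) lies near controls, Hspa1b and Fos lie between 1 day and control, and Ankrd1 and Mt2 at 3 days lie near their 1-day level.

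The sequence just upstream of 2 of these genes was searched for a heat shock element, here the letters GAANNTTC, a short form of the site bound by heat shock factor, because the members moved together. The 250 bases before the annotated start are shown from RefSeq on GRCm38.p6, 5′ to 3′ on the gene's strand, with GAANNTTC and the CCAAT box (CCAAT or ATTGG) in capitals. Dnajb1 lies on the plus strand, with this stretch at chr8:83607925-83608174, and Hspa1b on the minus strand, at chr17:34959239-34959488.
Dnajb1: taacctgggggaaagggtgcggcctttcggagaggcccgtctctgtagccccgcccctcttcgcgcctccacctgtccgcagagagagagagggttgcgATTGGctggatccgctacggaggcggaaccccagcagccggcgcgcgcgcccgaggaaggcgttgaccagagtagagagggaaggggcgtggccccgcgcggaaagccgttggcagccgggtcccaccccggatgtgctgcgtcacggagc
Hspa1b: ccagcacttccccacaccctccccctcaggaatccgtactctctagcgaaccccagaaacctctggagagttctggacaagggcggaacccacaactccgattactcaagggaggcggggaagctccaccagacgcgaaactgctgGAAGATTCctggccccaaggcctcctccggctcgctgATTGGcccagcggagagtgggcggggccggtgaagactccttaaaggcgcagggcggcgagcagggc
Hspa1b held 1 heat shock element and 1 CCAAT box, and Dnajb1 held 1 CCAAT box and no such element in this window. Of the 14 heat shock genes that fell, 11 had a promoter in the table, and 4 of these (36.4%) held GAANNTTC on either strand, against 6.78% of all 27025 promoters. A CCAAT box was present in 6 of the 11 (54.5%), against 34.5% of all promoters. The stretches of Hspa1a and Hspa1b differed at 3 of 250 bases. These matches describe letters in the sequence and not binding.

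Immediate early and stress transcription factors also fell. Of 35 listed genes, 32 were on the array, 31 were tested and 11 fell (35.5%, against 2.75% of all probe sets), with a list median of -0.65, and 0 rose by limma, with 1 higher at an unadjusted p under 0.05. Fos, a subunit of the AP-1 factor, had 264, 385 and 416 at 3 days, against 2771 and 3068 at 1 day and 44.5, 23 and 49.6 in controls. Atf3, a stress-induced repressor, had 564, 1036 and 836 at 3 days, against 6072 and 6899 at 1 day and 83.9, 138 and 133 in controls. In both genes the 3-day arrays formed a step between the 1-day arrays and the controls. Fos differed by -3.02 ± 0.36 (adjusted p = 0.000117) and Atf3 by -3.02 ± 0.26 (adjusted p = 7.05e-06), and at 3 days they were still 2.84 and 2.64 above control (adjusted p = 1.86e-05 and 1.81e-06). Gadd45g, a growth arrest and DNA damage gene, had 160.3, 213 and 309 at 3 days, against 1384 and 1875 at 1 day and 200, 140.3 and 209 in controls, a difference of -2.80 ± 0.26 (adjusted p = 1.04e-05). Its 3-day arrays overlapped the controls. The other falls were of Egr1, Gadd45b, Ier2, Cebpd, Dusp1, Nr4a1, Btg2 and Fosb, between -2.22 and -0.95. Jun, the usual partner of Fos, had 127, 118 and 207 at 3 days and 233 and 366 at 1 day and was not called (-0.94 ± 0.32, adjusted p = 0.0916), nor was Myc, a growth factor response gene (-1.03 ± 0.39, adjusted p = 0.131). Cdkn1a, which encodes the cell cycle inhibitor p21, had 706, 493 and 817 at 3 days and 372 and 466 at 1 day and was not called (adjusted p = 0.207).

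Nfil3, Phlda1 and Ccn1 were on the list of largest falls without being heat shock genes or members of the immediate early list. Nfil3, a bZIP repressor, had 55.6, 52.3 and 64.9 at 3 days, against 340.5 and 525 at 1 day, a difference of -2.63 ± 0.26 (adjusted p = 2.04e-05), and Phlda1 had 56.1, 119.7 and 94 at 3 days and 789 and 1061 at 1 day (-3.22 ± 0.26, adjusted p = 3.08e-06). Ccn1, a secreted matrix protein that responds to mechanical load, had 46.3, 87.7 and 68.3 at 3 days, against 772 and 748 at 1 day, a difference of -3.30 ± 0.24 (adjusted p = 1.38e-06). Nfil3 and Ccn1 at 3 days differed from control by 0.04 and 0.24 (adjusted p = 0.913 and 0.474), whereas Phlda1 was 1.52 above it (adjusted p = 0.000262). Of 20 listed endoplasmic reticulum stress genes, 18 were on the array, 16 were tested and 3 of these (18.8%, against 2.75% of all probe sets) fell. They were Dnajb9, a chaperone of that compartment (-1.26 ± 0.28), and the transcription factors Atf4 (-1.16 ± 0.19) and Xbp1 (-0.97 ± 0.25), while Hspa5, its main chaperone, differed by -0.41 ± 0.20 and was not called. The 3 falls numbered 1 without array 421, 1 without 435 and 1 with all 25 arrays.

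Genes of sarcomere strain and membrane repair, a single list, changed in both directions. Of 20 listed, 13 were on the array and tested, of which 5 fell (38.5%, against 2.75% of all probe sets) and 3 rose (23.1%, against 4.23%). Xirp1, an actin-binding protein of remodelling sarcomeres, had 1795, 2762 and 2217 at 3 days, against 11522 and 14193 at 1 day and 1149, 782 and 764 in controls, a difference of -2.52 ± 0.23 (adjusted p = 1.04e-05). Csrp3, the Z-disc protein known as muscle LIM protein, had 2441, 3880.4 and 2776 at 3 days and 9646 and 9113 at 1 day (-1.65 ± 0.28, adjusted p = 0.00172), and Ankrd2, a titin-associated ankyrin repeat protein, had 2126, 2023 and 3840.2 at 3 days and 7918 and 8168 at 1 day (-1.65 ± 0.45, adjusted p = 0.0371). The groups did not overlap in these 3 genes, which in this direction held for 20.6% of all probe sets. All 3 genes were still above control at 3 days, by 1.32, 2.54 and 1.95 (adjusted p = 0.000328, 4.36e-06 and 0.00284). Nrap and Myoz1 also fell (-1.59 ± 0.34 and -1.09 ± 0.24). The 5 falls numbered 2 without array 421, and likewise 2 without array 463 and 2 with all 25 arrays, and the 3 rises numbered 0 with all 25. Ankrd1, the cardiac relative of Ankrd2, had 4167, 2540.5 and 5304 at 3 days, against 5759 and 4800.4 at 1 day and 92.5, 170.2 and 109 in controls. Its groups overlapped (-0.46 ± 0.27, adjusted p = 0.377), and it was 4.85 above control at 3 days (adjusted p = 7.03e-09). Rrad, a small GTPase that binds calcium channels, had 2624, 1719.7 and 1945 at 3 days, against 2222 and 3403 at 1 day and 56, 61.8 and 67.1 in controls, and was not called between the days (adjusted p = 0.465).

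The 3 rises on that list were annexins, calcium-dependent membrane-binding proteins that gather at membrane wounds and are also made by leukocytes. Anxa1 had 1135, 791 and 653 at 3 days, against 193 and 126 at 1 day (2.33 ± 0.27, adjusted p = 9.35e-05), Anxa2 differed by 1.5 ± 0.22 (adjusted p = 0.000699) and Anxa5 by 1.10 ± 0.24 (adjusted p = 0.0111). Among 17 antioxidant and metal response genes tested of 19 on the array and 22 listed, 1 rose and 1 fell. Each is 5.88% of those tested, against 4.23% of all probe sets higher and 2.75% lower. The rise was lost with all 25 arrays, and the falls numbered 2 without 449 or 467 and with all arrays but 436. Srxn1, sulfiredoxin, had 152, 187 and 188 at 3 days, against 769.7 and 1176 at 1 day (-2.36 ± 0.33, adjusted p = 0.000532), and Txn1, thioredoxin, had 2138, 2134 and 2984 at 3 days, against 947 and 630.2 at 1 day (1.61 ± 0.33, adjusted p = 0.00735). Mt2, a metallothionein, had 4449.9, 3344 and 3791 at 3 days, against 4610.2 and 4616 at 1 day and 246, 254 and 240.5 in controls, so that it stayed far above control at both times, with a difference between days of -0.27 ± 0.27 (adjusted p = 0.635).

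Markers of macrophages and monocytes rose together. Of 33 listed, 24 were on the array and all 24 were tested. Of these, 17 rose (70.8%, against 4.23% of all probe sets) and 0 fell by limma, also at an unadjusted p under 0.05. Their median difference was 1.62. Lgals3, galectin-3, a lectin of activated macrophages, had 1350.5, 1540.2 and 1779.6 at 3 days, against 161 and 133 at 1 day and 27.4, 23.3 and 4.7 in controls, a difference of 3.29 ± 0.34 (adjusted p = 3.4e-05). The 1-day arrays were already above the controls, by 2.43 (adjusted p = 0.000307), and the 3-day arrays lay above those. Lyz2, lysozyme of myeloid cells, had 2566, 1989 and 2301 at 3 days, against 378 and 200.3 at 1 day (2.99 ± 0.42, adjusted p = 0.000485). Tyrobp, a signalling adaptor of myeloid receptors, had 916, 479 and 566 at 3 days, against 83.1 and 58 at 1 day (2.96 ± 0.53, adjusted p = 0.00285). Adgre1, which encodes the macrophage antigen F4/80, had 192, 131 and 112 at 3 days, against 13.3 and 26.1 at 1 day and 15.6, 5.1 and 5.5 in controls, a difference of 2.27 ± 0.36 (adjusted p = 0.00109). It was not called between 1 day and control (0.59, adjusted p = 0.51). Adgre1 was dim on every array of the fit outside the 3-day group. The filter asks for signal on only 2 arrays, and a member of this kind could hardly have been called lower. The 0 falls of the list are thus in part set by the filter.

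The receptor genes of the list gave a mixed record. Csf1r, the receptor of macrophage colony-stimulating factor, had 1036, 529.7 and 589.7 at 3 days, against 147 and 106 at 1 day (2.34 ± 0.32, adjusted p = 0.000386). Ccr2, the chemokine receptor of inflammatory monocytes, had 378, 235 and 299 at 3 days, against 118 and 61.1 at 1 day (1.66 ± 0.35, adjusted p = 0.00957), and Mrc1, the mannose receptor, had 223, 185 and 217 at 3 days, against 47.4 and 45.1 at 1 day (1.90 ± 0.28, adjusted p = 0.000647). These 3 receptors showed no overlap between the days, which in this direction held for 19.4% of all probe sets. Cx3cr1, the fractalkine receptor of resident and patrolling cells, had 52.5, 126 and 102 at 3 days, against 110.1 and 127 at 1 day and 175, 109.9 and 167 in controls, and the groups overlapped (adjusted p = 0.581). Cd14, the coreceptor for lipopolysaccharide, had 415, 268 and 244 at 3 days and 259 and 167 at 1 day (adjusted p = 0.518), and Itgam, an integrin of myeloid cells, differed by 1.01 ± 0.38 (adjusted p = 0.129). Cd68, a lysosomal glycoprotein of macrophages, had 910.4, 633 and 685 at 3 days, against 329 and 214 at 1 day and 71.5, 35.2 and 73.3 in controls (1.42 ± 0.28, adjusted p = 0.00521), with 1 of its 2 probe sets called. The summed signal of the 24 markers was 9245 to 13040 at 3 days, against 1977 to 2882 at 1 day and 1141 to 1488 in controls. Sample 435 was highest. The 17 rises numbered 12 without sample 435, 8 without the 1-day array 463 and 0 in the fit of all 25 arrays, which includes sample 436. With all arrays but 436, they numbered 17.

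**Figure D3:**
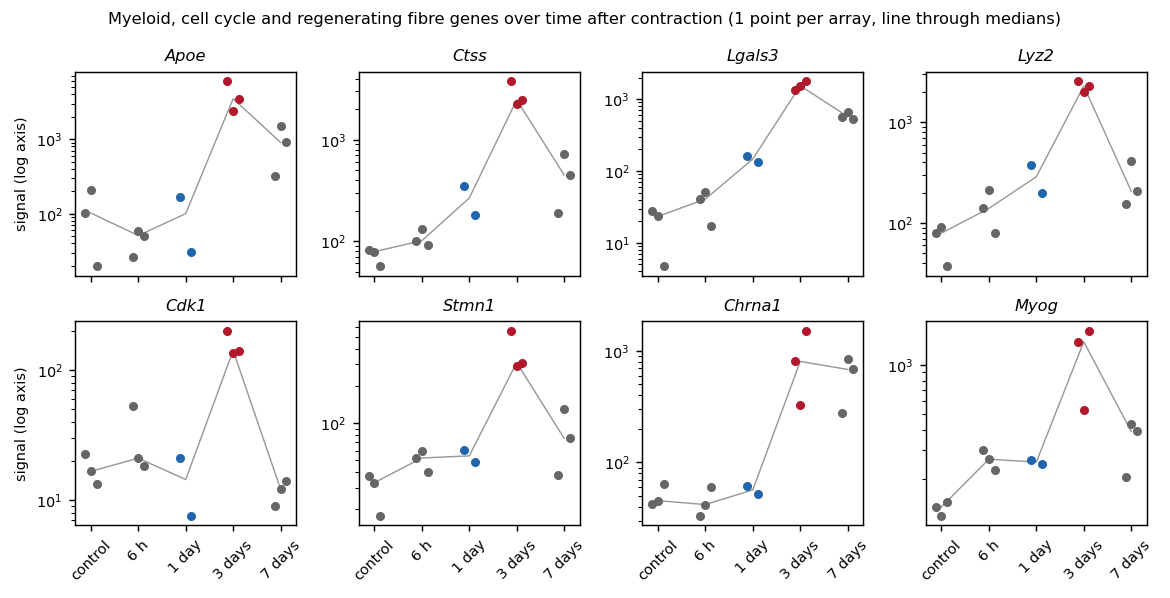
Signals of 4 myeloid genes (upper row) and of cell cycle and regenerating fibre genes (lower row) on a log axis, 1 point per array, in controls and at 6 h, 1, 3 and 7 days after contraction, with a line through group medians. The median of every gene shown is highest at 3 days, and that of Chrna1 remains near it at 7 days.

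Apoe and most of the cathepsin and lysosome genes rose. Apoe, the apolipoprotein made by lipid-loaded macrophages, had the largest of the called rises, with 5975, 2356 and 3484 at 3 days, against 169 and 31.1 at 1 day and 102, 208 and 19.7 in controls. The 1-day arrays lay within the range of the controls, and the difference was 5.36 ± 0.73 (adjusted p = 0.000419), or 41.0-fold higher at 3 days, with 1 of 2 probe sets called. Of 30 listed cathepsin and lysosome genes, 24 were on the array and tested, 17 rose (70.8%, against 4.23% of all probe sets) and 0 fell by limma, also at an unadjusted p under 0.05, with a median of 1.18. Ctss, cathepsin S, a protease of antigen-presenting cells, had 3782, 2240.4 and 2475 at 3 days, against 350.1 and 181 at 1 day (3.38 ± 0.41, adjusted p = 0.000121). Lgmn, legumain, had 1623, 1209.9 and 733 at 3 days, against 196 and 211 at 1 day (2.40 ± 0.28, adjusted p = 0.000105), and Lipa, lysosomal acid lipase, had 228, 148 and 96.6 at 3 days, against 13.4 and 12.2 at 1 day (2.65 ± 0.52, adjusted p = 0.00566). Lipa was dim on both 1-day arrays, and a member of this kind could hardly have been called lower. The 0 falls of the list are thus in part set by such levels. Cathepsins that most cells express rose as well. Ctsb had 6777, 3567 and 4429.6 at 3 days, against 1501 and 1274 at 1 day (1.77 ± 0.25, adjusted p = 0.000532), and Ctsl had 2056, 1141 and 1766 at 3 days, against 453 and 496 at 1 day (1.73 ± 0.28, adjusted p = 0.00113). Ctsk, the cathepsin of osteoclasts, differed by 0.65 ± 0.24 and was not called. The 17 rises numbered 6 without array 463, 10 without 421 and 1 with all 25 arrays.

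Complement and Fc receptor genes rose as well. Of 19 listed, 15 were on the array and tested, 8 rose (53.3%, against 4.23% of all probe sets) and 0 fell by limma, also at an unadjusted p under 0.05, with a median of 1.29. C1qb and C1qa encode chains of C1q, the recognition protein of the classical pathway, which macrophages make. C1qb had 1398, 628 and 851 at 3 days, against 108 and 98.7 at 1 day (2.98 ± 0.44, adjusted p = 0.000699), and C1qa had 1379, 739.6 and 908 at 3 days, against 119.9 and 152 at 1 day (2.74 ± 0.35, adjusted p = 0.000204). C3ar1, the receptor of the complement fragment C3a, had 244, 156 and 104 at 3 days, against 28.2 and 18.6 at 1 day (2.25 ± 0.36, adjusted p = 0.00109). C3ar1 was dim on both 1-day arrays, and a member of this kind could hardly have been called lower. The 0 falls of the list are thus in part set by such levels. The complement genes C2, Cfb, Serping1 and C1ra, which many tissues express, differed by -0.34 to 0.23 and were not called. Sirpa, a myeloid receptor of the signal CD47, had 545, 309 and 375 at 3 days, against 83.9 and 24.7 at 1 day (2.77 ± 0.44, adjusted p = 0.00112). The 8 rises numbered 3 without array 463, 4 without 435 and 0 with all 25 arrays.

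Antigen presentation and interferon genes rose in part. All 18 listed genes of MHC class II and antigen presentation were on the array and tested, and 5 rose (27.8%, against 4.23% of all probe sets), with a median of 0.93. H2-Aa, a class II chain, had 833, 554 and 626 at 3 days, against 109.7 and 104 at 1 day (2.49 ± 0.45, adjusted p = 0.00278). H2-DMa, which loads peptides onto class II, had 308, 179 and 224 at 3 days, against 39.2 and 32.7 at 1 day (2.32 ± 0.35, adjusted p = 0.000877), and Cd74, the invariant chain, differed by 1.63 ± 0.33 (adjusted p = 0.00729). H2-Ab1, the partner chain of H2-Aa, differed by 1.39 ± 0.46 (adjusted p = 0.0845) and the costimulatory ligands Cd80 and Cd86 by -0.83 ± 0.34 and -0.51 ± 0.48, none of them called. The 5 rises numbered 2 without array 463, 3 without 435, 3 without 467 and 0 with all 25 arrays, against 9 with all arrays but 436. Of 25 listed interferon response genes, 20 were on the array, 18 were tested and 4 rose (22.2%, against 4.23% of all probe sets), namely Usp18 (1.75 ± 0.37), Ifit3 (1.63 ± 0.37), Isg15 (1.30 ± 0.37) and Irf8 (1.07 ± 0.28), the last a transcription factor that myeloid cells also need for their development. The 4 numbered 0 without sample 435, without the 1-day array 463 and with all 25 arrays, 2 without 421 or 467, and 7 with all arrays but 436.

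Most chemokines were not called. Of 31 listed cytokines and chemokines, 28 were on the array and 19 were tested, of which 2 rose (10.5%, against 4.23% of all probe sets) and 0 fell by limma, also at an unadjusted p under 0.05. Ccl2, the ligand of Ccr2, had 441, 208 and 229 at 3 days, against 299.5 and 237 at 1 day and 4.6, 13 and 5.5 in controls. It was far above control at both times, the days overlapped (0.05 ± 0.49, adjusted p = 0.973), and the same held for Ccl7 (209, 107 and 95.9 at 3 days and 137 and 95.3 at 1 day). Ccl8, another ligand of monocytes, had 309.6, 166 and 222 at 3 days, against 46 and 15.4 at 1 day (2.54 ± 0.45, adjusted p = 0.00259), and Ccl9 had 1833, 849.7 and 940.4 at 3 days, against 523 and 380.4 at 1 day (1.32 ± 0.31, adjusted p = 0.0152). The neutrophil attractants Cxcl1 and Cxcl2 differed by -0.74 ± 0.62 and -0.40 ± 0.56 and were not called. The cytokines Il1b, Il6 and Il10 did not pass the filter. The 2 rises numbered 0 without array 463, 1 without 435 and 0 with all 25 arrays.

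Markers of other leukocytes gave no calls, in lists of 7, 8 and 4 tested members. Over all probe sets 6.97% were called, so 0 calls in lists this short lies near that share. Of 15 listed neutrophil markers, 14 were on the array and 7 were tested, with 0 called by limma and 0 at an unadjusted p under 0.05. S100a8, a calcium-binding protein abundant in neutrophils, had 32.4, 45.8 and 39.3 at 3 days and 103 and 30.5 at 1 day, with sample 421 highest, and S100a9 and Ly6g were not above the filter. The summed signal of the 7 tested members was 413 to 656 at 3 days, against 590 to 609 at 1 day and 651 to 918 in controls. Of 22 markers of T, B and NK cells, 17 were on the array and 8 were tested, and of 11 markers of mast cells and eosinophils, 9 were on the array and 4 were tested. Both lists had 0 calls and 0 at an unadjusted p under 0.05, and the T cell genes Cd3e, Cd3d and Cd3g were among those not tested.

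Genes of mitosis and the cell cycle rose. Of 61 listed, 53 were on the array, 47 were tested, 19 rose (40.4%, against 4.23% of all probe sets) and 0 fell by limma, also at an unadjusted p under 0.05, with a median of 0.85. Cdk1, the kinase that drives entry into mitosis, had 202, 137 and 142 at 3 days, against 21.3 and 7.6 at 1 day and 22.8, 16.7 and 13.4 in controls, a difference of 2.68 ± 0.37 (adjusted p = 0.000424). The 1-day arrays lay within or below the range of the controls, and all 3-day arrays lay far above it. Stmn1, stathmin, a microtubule regulator of dividing cells, had 565, 290.5 and 311 at 3 days, against 60.6 and 48 at 1 day (2.52 ± 0.38, adjusted p = 0.000877). Anln, anillin, a scaffold of the cleavage furrow, had 164, 73 and 69.6 at 3 days, against 8 and 8.9 at 1 day (2.33 ± 0.39, adjusted p = 0.00153). Cks2, a subunit that binds Cdk1, had 77.2, 71.2 and 54.9 at 3 days, against 4.7 and 2.8 at 1 day (2.26 ± 0.35, adjusted p = 0.00104). In all 4 genes sample 435 was highest. Cks2 was dim on every array of the fit outside the 3-day group, so it passed the filter, which asks for 2 arrays, through that group. Such a member could hardly have been called lower, so the 0 falls of the list are in part set by the filter. Birc5, survivin, had 157, 72.6 and 76 at 3 days, against 32 and 6.8 at 1 day (1.87 ± 0.39, adjusted p = 0.00859), and Top2a, topoisomerase II alpha, had 99, 54 and 78 at 3 days, against 30 and 4.4 at 1 day (1.69 ± 0.46, adjusted p = 0.0377).

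The rises also took in the mitotic kinesins Kif11, Kif20a, Kif22 and Kif23, the cyclins Ccna2, Ccnb2 and Ccnd1, the checkpoint gene Mad2l1 and the condensin Smc4, between 1.07 and 1.94. Ccnd1, the cyclin of the growth factor response, had 471, 239 and 290.2 at 3 days, against 134 and 143 at 1 day (1.14 ± 0.33, adjusted p = 0.0451). Several familiar proliferation genes were not called. Mki67, the Ki-67 antigen, had 59.7, 67.8 and 54.2 at 3 days and 70.7 and 42.6 at 1 day by its brighter probe set (0.10 ± 0.30, adjusted p = 0.894), while the other of its 2 probe sets was called higher. Plk1, Cdc20, Aurka and Foxm1 differed by 0.27 to 0.49. The mean log2 level of the 47 tested genes was 7.27, 6.98 and 6.82 on samples 435, 449 and 467, against 6.18 and 5.95 at 1 day and 5.85 to 6.02 in controls. The 19 rises numbered 6 without sample 435, 6 without the 1-day array 463, 12 without 421, and 1 with all 25 arrays, against 23 with all arrays but 436.

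The same stretch is shown for 2 genes of this group, since its members moved together. The letters searched were TTTGAA or TTCAAA, the cell cycle homology region found in promoters of late cell cycle genes, the CCAAT box (CCAAT or ATTGG) and the E2F site (TTTCCCGC, TTTGGCGC or their reverse complements), and matches are in capitals. Cdk1 lies on the minus strand, with this stretch at chr10:69352913-69353162, and Anln on the minus strand, at chr9:22389207-22389456, both on GRCm38.p6 from RefSeq.
Cdk1: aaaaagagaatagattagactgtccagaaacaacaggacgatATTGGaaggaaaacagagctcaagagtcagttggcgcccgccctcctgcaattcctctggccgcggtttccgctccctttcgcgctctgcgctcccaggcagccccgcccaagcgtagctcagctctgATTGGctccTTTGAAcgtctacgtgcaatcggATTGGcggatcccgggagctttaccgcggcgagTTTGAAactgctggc
Anln: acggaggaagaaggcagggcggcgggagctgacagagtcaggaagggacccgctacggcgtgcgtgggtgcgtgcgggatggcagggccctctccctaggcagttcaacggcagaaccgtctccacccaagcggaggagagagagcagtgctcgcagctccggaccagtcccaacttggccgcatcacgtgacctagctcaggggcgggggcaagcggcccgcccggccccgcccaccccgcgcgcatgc
Cdk1 held TTTGAA at 2 places and a CCAAT box at 3, and Anln held none of these letters in the window. Of the 19 genes that rose, 14 had a promoter in the table, and 5 of these (35.7%) held TTTGAA or TTCAAA, against 16.3% of all promoters. A CCAAT box was present in 11 of the 14 (78.6%), against 34.5% of all promoters. The E2F letters were found in 0 of the 14, against 1.35% of all promoters.

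Of 40 listed DNA replication genes, 36 were on the array and 31 were tested, of which 3 rose (9.68%, against 4.23% of all probe sets) and 1 fell (3.23%, against 2.75%), with a median of 0.47. The rises numbered 1 without array 463, 1 without 435 and 1 with all 25 arrays, against 8 with all arrays but 436 and 5 with the 5 arrays alone, and the fall was lost without any one of 421, 463, 435 and 467 and numbered 2 without 449. Rrm2, the S phase subunit of ribonucleotide reductase, had 132, 128 and 159 at 3 days, against 28.9 and 23.5 at 1 day and 24, 26.6 and 9.3 in controls (1.96 ± 0.31, adjusted p = 0.00109). Lig1, DNA ligase I, had 183, 99.6 and 109.7 at 3 days, against 42.6 and 14.9 at 1 day (1.82 ± 0.39, adjusted p = 0.00971), and Uhrf1, which helps to copy DNA methylation, differed by 1.63 ± 0.38 (adjusted p = 0.0155). Pola2, a subunit of DNA polymerase alpha, went the other way, with 35.9, 77.6 and 37.4 at 3 days, against 169.6 and 168 at 1 day and 201, 198 and 335 in controls (-1.58 ± 0.43, adjusted p = 0.0366), by 1 of its 2 probe sets. Pcna, the sliding clamp, had 439.8, 296 and 299 at 3 days, against 215 and 175 at 1 day, without overlap but not called (0.77 ± 0.27, adjusted p = 0.101). The helicase subunits Mcm2 to Mcm5 differed by 0.87 to 1.07, with no overlap for Mcm2 (165, 98.1 and 128 at 3 days and 56 and 52.4 at 1 day, adjusted p = 0.116), and none was called. Of 25 nucleolar genes and 33 proteasome genes tested, 1 of each rose (4% and 3.03%), which is no more than the 4.23% of all probe sets. They were Npm1 (0.80 ± 0.23) and Psmb3 (0.81 ± 0.23), calls lost after median centring, without array 467 and with all 25 arrays. The Npm1 call was also lost without 435 and with the 5 arrays alone, and the Psmb3 call without 449. Tubb2a, a tubulin, had 1582, 875 and 1006 at 3 days, against 124 and 152 at 1 day and 94.5, 168 and 133 in controls, a difference of 2.91 ± 0.31 (adjusted p = 5.81e-05).

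**Figure D4:**
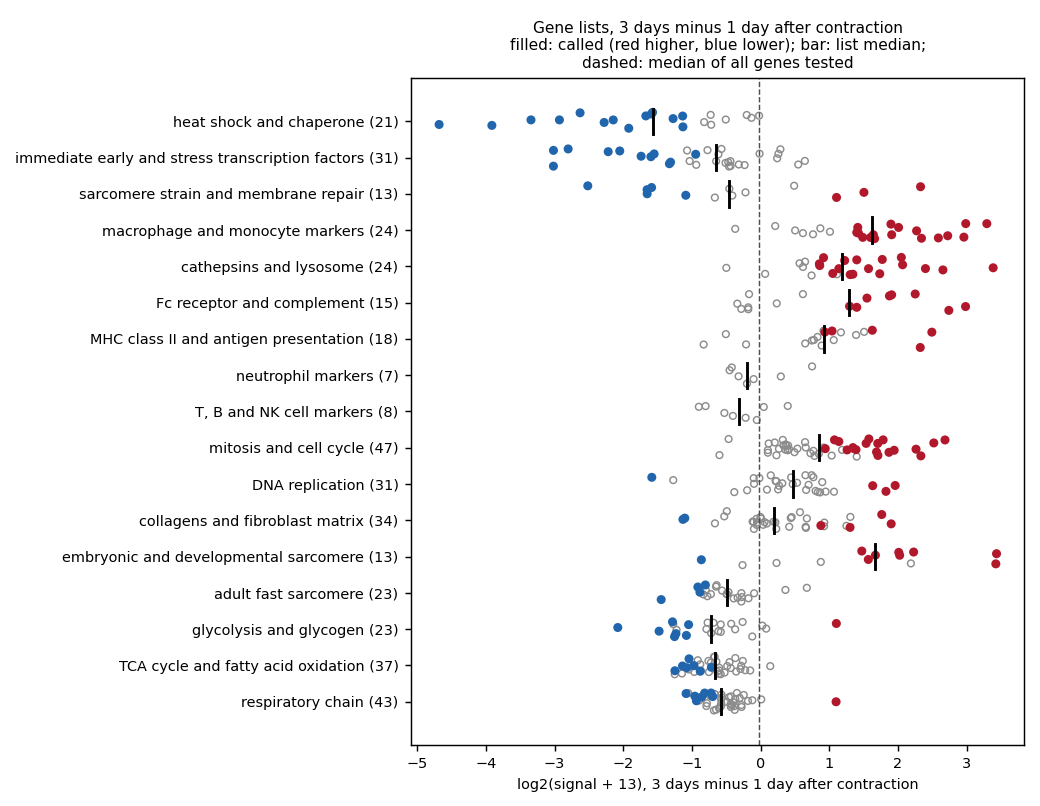
Each point is a tested gene of 17 lists, placed by its difference in log2(signal + 13), 3 days minus 1 day, with called genes filled, and the bar marks the list's median. Heat shock genes (14 of 21 called lower) lie to the left, macrophage markers (17 of 24 called higher), mitosis genes (19 of 47) and embryonic sarcomere genes (8 of 13) to the right.

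Matrix genes showed a few rises. Of 38 listed collagens and fibroblast matrix genes, 35 were on the array and 34 were tested, of which 4 rose (11.8%, against 4.23% of all probe sets) and 2 fell (5.88%, against 2.75%), with a median of 0.20. Postn, periostin, a matrix protein of healing tissue, had 427, 458 and 330.3 at 3 days, against 114 and 84 at 1 day (1.90 ± 0.40, adjusted p = 0.00849). Col3a1, the fibrillar collagen of early granulation tissue, had 993, 1127 and 995 at 3 days, against 339 and 502 at 1 day (1.30 ± 0.36, adjusted p = 0.0417), and Col5a2 and Col6a1 rose by 1.76 ± 0.40 and 0.88 ± 0.20. Col1a1, a chain of the main fibrillar collagen, had 2254, 1751 and 1816 at 3 days, against 505 and 1276 at 1 day (1.25 ± 0.46, adjusted p = 0.127), with no overlap, a wide spread between the 1-day arrays and no call by its brighter probe set, while the other of its 2 probe sets was called higher. The 2 falls were of genes of collagen folding: Serpinh1, the collagen chaperone Hsp47 (-1.13 ± 0.29, adjusted p = 0.0279), which is also on the heat shock list, and P4ha1, a prolyl hydroxylase (-1.10 ± 0.25, adjusted p = 0.013). The 4 rises numbered 0 without array 463, 1 without 421, 1 without 435 and 0 with all 25 arrays, and the 2 falls numbered 0 without 463, 0 without 435, 1 without 449 or 467 and 0 with all 25.

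Of 26 listed matrix proteases and inhibitors, 23 were on the array and 18 were tested, of which 3 rose (16.7%, against 4.23% of all probe sets), or 1 with all 25 arrays. Mmp12, macrophage elastase, had 1341, 512 and 823 at 3 days, against 81.5 and 61 at 1 day (3.33 ± 0.61, adjusted p = 0.0034). Adam8, a leukocyte metalloprotease, had 411, 129.7 and 197 at 3 days, against 23.3 and 21.3 at 1 day (2.73 ± 0.46, adjusted p = 0.00193), and Adam19 differed by 1.73 ± 0.43 (adjusted p = 0.024). Mmp10, stromelysin 2, which is not on the list, took the opposite course, with 6.9, 19.3 and 7.8 at 3 days, against 178 and 227 at 1 day and 3.4, 1.3 and 2.5 in controls (-3.17 ± 0.37, adjusted p = 0.000102). Among 23 growth factor genes tested of 31 on the array and 34 listed, 1 rose (4.35%, against 4.23% of all probe sets) and 4 fell (17.4%, against 2.75%). Without array 463 they numbered 0 and 2, and the rise was also lost without 435 and with all 25 arrays. Tgfb1, a cytokine that drives matrix production, had 208, 95.9 and 92.1 at 3 days, against 13.7 and 14.8 at 1 day (2.32 ± 0.53, adjusted p = 0.013). Mstn, myostatin, the inhibitor of muscle growth, had 39.5, 67.9 and 98.7 at 3 days, against 257 and 289.6 at 1 day and 236, 184 and 272 in controls (-1.87 ± 0.30, adjusted p = 0.00112), so that it lay below control at 3 days, by -1.63 (adjusted p = 0.000505). Besides Ccn1, Fgf1 (-1.74 ± 0.41) and Hbegf (-1.5 ± 0.29), a ligand of the EGF receptor, fell.

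Genes of the regenerating fibre rose. Of 15 listed embryonic and developmental sarcomere and junction genes, 13 were on the array and tested, 8 rose (61.5%, against 4.23% of all probe sets) and 1 fell (7.69%, against 2.75%), with a median of 1.67. Chrna1 and Chrng, subunits of the muscle acetylcholine receptor, led the list, and of these only Chrng is particular to embryonic or denervated muscle. Chrna1 had 803, 329 and 1516 at 3 days, against 61 and 52.6 at 1 day and 42.4, 45.5 and 64.2 in controls (3.43 ± 0.49, adjusted p = 0.000565), and Chrng had 475, 134 and 443 at 3 days, against 28.2 and 8.6 at 1 day (3.42 ± 0.59, adjusted p = 0.00199). In both, sample 449 was the lowest of the 3-day arrays and still above both 1-day arrays, which was a condition of the list of largest rises. Chrnd, a further subunit, had 333, 67.6 and 391 at 3 days, against 35.3 and 37.2 at 1 day (2.19 ± 0.65), and was not called (adjusted p = 0.0524). Myh3, the embryonic myosin heavy chain, had 106, 86.5 and 60 at 3 days, against 7.2 and 14.2 at 1 day and 4.6, 1.1 and 19.7 in controls (2.02 ± 0.42, adjusted p = 0.00873). Myh8, the perinatal heavy chain, had 56.9, 40.1 and 27.8 at 3 days and 51 and 51 at 1 day, with overlap (-0.26 ± 0.29, adjusted p = 0.669).

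Troponins of slow, cardiac and developing muscle rose as well. Tnnc1, the slow and cardiac troponin C, had 184, 228 and 107 at 3 days, against 14.2 and 40.5 at 1 day (2.23 ± 0.42, adjusted p = 0.00362), Tnni1 had 962, 619 and 501 at 3 days, against 172 and 142 at 1 day (2.01 ± 0.33, adjusted p = 0.00153), and Tnnt2, Tnnt1 and the embryonic light chain Myl4 differed by 1.47 ± 0.32, 1.57 ± 0.40 and 1.67 ± 0.36. Actc1, the cardiac and fetal actin, fell instead (-0.86 ± 0.25, adjusted p = 0.0456), a call lost after quantile normalization and after median centring. The call was also lost without 435, without 467 and with all 25 arrays. The 8 rises numbered 3 without array 463, 3 without array 421 and 3 with all 25 arrays. Of 25 listed myogenic factors and satellite cell genes, 23 were on the array, 20 were tested, 2 rose (10%, against 4.23% of all probe sets) and 0 fell by limma, with 2 lower at an unadjusted p under 0.05. The 2 rises numbered 1 without array 463 and 0 with all 25 arrays. Myog, myogenin, the factor of terminal differentiation, had 1382, 528 and 1616 at 3 days, against 262 and 245 at 1 day and 135, 119 and 144 in controls (2.01 ± 0.37, adjusted p = 0.00362). Cdkn1c, the inhibitor p57 that takes myoblasts out of the cycle, had 334, 372 and 253 at 3 days, against 78.8 and 97 at 1 day (1.71 ± 0.25, adjusted p = 0.000699). Myod1, the determination factor upstream of myogenin, had 980.5, 558 and 1291 at 3 days, against 1186 and 1993 at 1 day and 334, 221 and 266 in controls. It was above control on every injured array, and the days overlapped (-0.78 ± 0.35, adjusted p = 0.216).

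Genes of the adult fibre and of energy metabolism were lower in part. Of 33 listed adult fast sarcomere genes, 24 were on the array and 23 were tested, of which 4 fell (17.4%, against 2.75% of all probe sets) and 0 rose by limma, with 1 higher at an unadjusted p under 0.05, and the median was -0.50. The falls were of Ldb3, a Z-disc protein (1349, 4561 and 4045 at 3 days, against 7248 and 8821 at 1 day), Myom1 of the M-band (-0.91 ± 0.26), the calcium release channel Ryr1 (-0.88 ± 0.25) and the tropomyosin Tpm2 (-0.81 ± 0.23). After quantile normalization 0 of the list were called, and after median centring 2. With either 1-day array left out, with the 3-day array 435 left out, with the 5 arrays alone or with all 25, 0 were called. The 4 falls numbered 1 with sample 417, 431, 467, 425, 453 or control replicate 2 left out in turn, and 2 with sample 445 left out. Acta1, skeletal actin, had 14793, 9700.3 and 17852 at 3 days and 13166 and 16226 at 1 day (-0.10 ± 0.37), and Ckm, muscle creatine kinase, had 2258, 3513 and 2382 at 3 days and 3758 and 4235 at 1 day (-0.58 ± 0.24, adjusted p = 0.168), neither called.

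Of 29 listed glycolysis and glycogen genes, 24 were on the array and 23 were tested, of which 7 fell (30.4%, against 2.75% of all probe sets) and 1 rose (4.35%, against 4.23%), with a median of -0.72. Gpd1, glycerol-3-phosphate dehydrogenase, had 154, 213 and 258 at 3 days, against 944 and 869 at 1 day and 1197, 1481 and 2477 in controls (-2.08 ± 0.27, adjusted p = 0.000261). Pygm, muscle glycogen phosphorylase, had 1902, 5378 and 4805 at 3 days, against 10079 and 10394 at 1 day (-1.48 ± 0.35, adjusted p = 0.0182), and Pfkm, muscle phosphofructokinase, had 2280.3, 4801 and 4244 at 3 days, against 8138 and 9072 at 1 day (-1.25 ± 0.27, adjusted p = 0.0111). In Pygm and Pfkm sample 435 was the lowest of the 3-day arrays. The rise was of Pgam1 (1.10 ± 0.32), the form of phosphoglycerate mutase outside muscle, while the muscle form Pgam2 differed by -0.79 ± 0.25 and was not called. Of 41 listed genes of the TCA cycle or of fatty acid oxidation, 38 were on the array and 37 were tested, and 36 of them had lower means at 3 days. Of those tested, 7 fell (18.9%, against 2.75% of all probe sets) and 0 rose by limma, also at an unadjusted p under 0.05, with a median of -0.67. Pdha1, of the pyruvate dehydrogenase complex, had 1332, 2001 and 2040 at 3 days, against 3671 and 4794 at 1 day (-1.25 ± 0.24, adjusted p = 0.00408). Sucla2 and Acadm, of the TCA cycle and of fatty acid oxidation, differed by -1.14 ± 0.21 and -1.07 ± 0.28. Of 52 listed respiratory chain genes, 44 were on the array and 43 were tested, with 7 falls (16.3%, against 2.75% of all probe sets), 1 rise (2.33%, against 4.23%) and a median of -0.57. Uqcrc1, of complex III, had 1800.1, 1763 and 1940.5 at 3 days, against 3973 and 3838 at 1 day (-1.09 ± 0.19, adjusted p = 0.0025), and the rise was of Cox6a1 (1.10 ± 0.26), the form of that subunit outside muscle, while its muscle form Cox6a2 differed by -0.40 ± 0.24 and was not called.

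The metabolic counts depended on single arrays. The mean log2 level of the 37 TCA and fatty acid oxidation genes was 8.99, 9.61 and 9.29 on samples 435, 449 and 467, against 9.93 and 10.03 at 1 day and 10.12 to 10.32 in controls. The 7 falls of this list numbered 21 without sample 449, 4 without 435, 4 without the 1-day array 421, 0 without 463 and 0 with all 25 arrays. Those of glycolysis numbered 10, 5, 3, 1 and 1 in the same order, and those of the respiratory chain 9, 2, 2, 1 and 0. With all arrays but 436, the falls of the TCA list numbered 18. Among fits leaving out a 3-day array, the rise of Pgam1 was lost without 435 and without 467, and that of Cox6a1 without 435. Both single rises were also lost with all 25 arrays. After quantile normalization the falls numbered 8, 4 and 4 for the TCA, glycolysis and respiratory chain lists. Sample 435 thus had the highest mean level of macrophage, lysosomal and mitosis genes of the 3-day arrays and the lowest of metabolic genes. Its actin ratio of 1.181 lay between those of samples 449 (1.213) and 467 (0.923).

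Markers of other cells of muscle were almost without calls. Over all probe sets 6.97% were called, so 0 calls in lists this short lies near that share. The 1 endothelial fall below is 7.69% of those tested, against 2.75% of all probe sets. Of 13 endothelial markers tested of 14 on the array, 1 fell, Selp, the adhesion molecule P-selectin of activated endothelium and platelets, with 29.6, 10.4 and 19.7 at 3 days, against 132 and 67.9 at 1 day and 6.8, 7.2 and 12.3 in controls (-1.76 ± 0.38, adjusted p = 0.00972), a call lost without array 421. Pecam1, a general endothelial marker, had 110.3, 137 and 97.7 at 3 days and 161 and 152 at 1 day and was not called (adjusted p = 0.46). Smooth muscle and pericyte (9 tested), Schwann cell (6), adipocyte (7), tendon (3), epithelial (5) and red cell and platelet markers (5) had 0 calls by limma, with 1, 0, 1, 0, 1 and 0 at an unadjusted p under 0.05. Of 12 circadian clock genes tested, 2 fell (16.7%, against 2.75% of all probe sets), the repressor Nr1d1 (206, 405 and 334 at 3 days, against 859.8 and 862 at 1 day, adjusted p = 0.0116) and the activator Arntl (-1.26 ± 0.29, adjusted p = 0.0146). Dbp, an output gene of the clock, had 114, 167 and 223 at 3 days and 95 and 116 at 1 day and was not called (adjusted p = 0.317). The 2 falls of the clock list numbered 0 without array 463, 0 with all 25 arrays, 1 without 421 or 467, and 4 after quantile normalization and with all arrays but 436.

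The change between 1 and 3 days was set against that after freeze in the same model, which asks where the 2 injuries took different courses. Of 9504 probe sets tested in all 25 arrays, 31 (0.326%) differed, 19 higher and 12 lower in contraction minus freeze. Without sample 436, 157 of 9451 (1.66%) differed, 73 higher and 84 lower. Freeze signals are given for samples 436, 450 and 468 at 3 days and 422, 460 and 464 at 1 day. Dnajb1, 25.7-fold lower at 3 days than at 1 day after contraction, had 55.1, 100.5 and 110.4 at 3 days after freeze, against 51.4, 87.3 and 73.5 at 1 day after freeze, where the times overlapped through sample 436 and the other 3-day arrays lay above all 1-day arrays. The difference of the changes was -4.94 (adjusted p = 0.0484), and without sample 436 it was -5.20 ± 1.09 (SE, adjusted p = 0.0132). Gadd45g had 203, 306 and 366 at 3 days and 186, 264 and 350.1 at 1 day after freeze, and the difference of its changes was -2.93 (adjusted p = 0.00441). Mmp10 was dim on every freeze array (5.1, 0.9 and 11 at 3 days and 1.9, 1.1 and 1.8 at 1 day), with a difference of -3.49 (adjusted p = 0.00444). Ccn1 (56, 52.2 and 51.5 at 3 days and 100.2, 105 and 101 at 1 day after freeze) and Nfil3 differed by -2.50 and -2.52 (adjusted p = 0.00827 for each). Fos differed only without sample 436 (-2.77, adjusted p = 0.0121, against -2.17 and 0.276 with it). Hspa1b was not called in either fit (-2.35 and -2.42, adjusted p = 0.512 and 0.312), with 44.9, 49.9 and 58.3 at 3 days and 164, 160.5 and 204 at 1 day after freeze.

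In the opposite direction stood genes that were high 1 day after freeze and lower 3 days after it. Arg1, arginase 1 of alternatively activated macrophages, had 46.5, 44.2 and 19.5 at 3 days and 54.1 and 29.7 at 1 day after contraction, against 5, 58.5 and 62.2 at 3 days and 747, 1305 and 1092 at 1 day after freeze. The difference of the changes was 4.34 (adjusted p = 0.00441). Pdpn, podoplanin, had 198, 107 and 162 at 3 days and 144 and 181 at 1 day after contraction, against 21.2, 223 and 217 at 3 days and 1222, 1346 and 1783 at 1 day after freeze, a difference of 3.47 (adjusted p = 0.0484). Mmp9, gelatinase B, which neutrophils store, had 8.3, 11.7 and 13 at 3 days and 9.7 and 14.5 at 1 day after contraction, against 10.3, 44.7 and 6.8 at 3 days and 119.6, 339.5 and 291 at 1 day after freeze, a difference of 2.96 (adjusted p = 0.0166). Slpi, an inhibitor of leukocyte proteases, differed by 2.56 (adjusted p = 0.022), and Wdr92 by 3.29 (adjusted p = 0.0495). Without sample 436, Sfrp2, a secreted Wnt modulator, and Hk2, hexokinase 2, were called with -2.95 ± 0.34 and 2.51 ± 0.29 (SE, adjusted p = 5.42e-05 for each). Sfrp2 had 91.3, 113 and 101 at 3 days and 56.3 and 53.4 at 1 day after contraction, against 11.6, 1157 and 944 at 3 days and 54.4, 88.3 and 66.1 at 1 day after freeze.

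**Figure D5:**
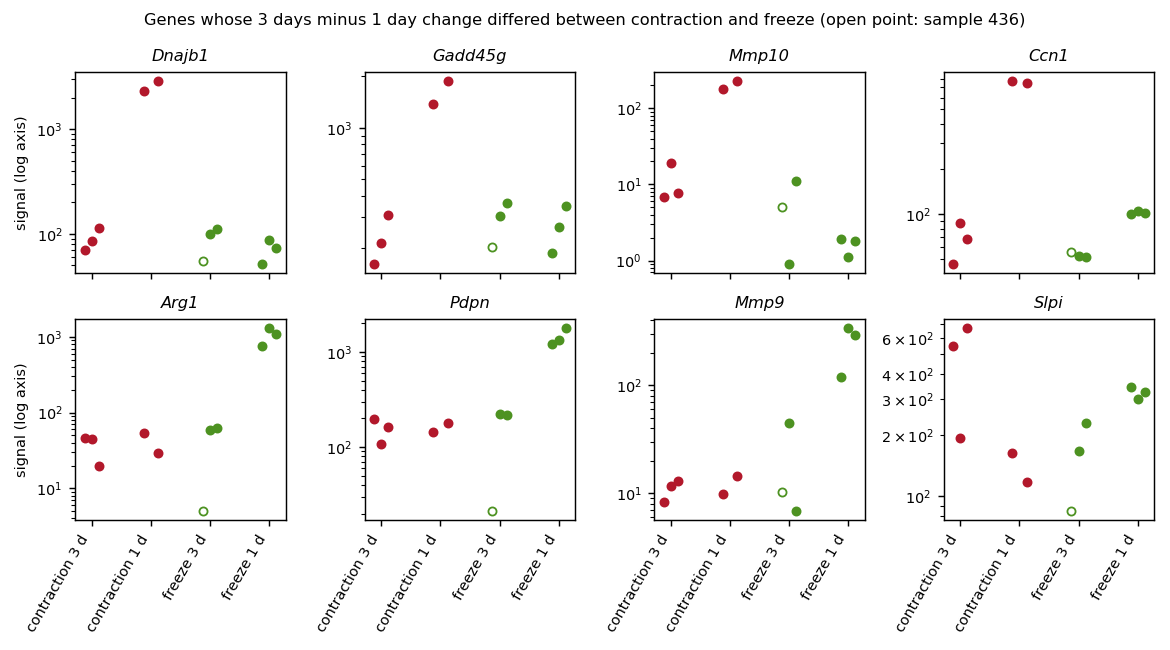
Signals on a log axis at 3 days and 1 day after contraction (red) and at 3 days and 1 day after freeze (green), 1 point per array, for 4 genes whose change was lower after contraction (upper row) and 4 whose change was higher (lower row). The open point is freeze sample 436, and Dnajb1 stands out on both contraction arrays at 1 day (2316 and 2873) and on no freeze array.

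The macrophage and mitosis lists had median changes of 1.62 and 0.85 after contraction, against 1.09 and 1.19 after freeze without sample 436. With sample 436 the freeze medians were -0.44 and 0.57. For the heat shock list the median was -1.57 after contraction, against -0.07 after freeze with sample 436 and -0.09 without it, and 5 of its 22 tested members were called lower in contraction minus freeze without sample 436, as were 84 of all 9451 probe sets. Apoe had 17.7, 9669 and 10509 at 3 days and 739, 1089 and 925 at 1 day after freeze, and no difference between the injuries was called (adjusted p = 0.516, and 0.397 without sample 436).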

How the data were processed

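Total RNA of 25 muscles was measured on 1 Affymetrix array each (Murine Genome U74 version 2, array A). RNA was extracted with TRIzol and an RNeasy kit, per the labels' protocols. Each deposited value is the linear intensity of a probe set, made by the authors; the submitters' processing notes name MAS5. Detection calls were not used here. MAS5 combines matched and mismatched probes into 1 signal, and the 2%-trimmed means of 150.089 to 150.127 show a common scale, so changes are relative to the bulk of each array.

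Of 12488 probe sets, 66 were Affymetrix controls, 10833 had 1 gene symbol in the platform table (updated through a RefSeq gene table of GRCm38.p6), 396 had several and 1193 are unnamed here. The brightest probe set over all 25 arrays stood for each of 8251 genes. Signals were taken to log2 after adding 13 to the deposited intensity, which is the 20th percentile of the signals. Testing took in probe sets above the 40th percentile on 2 or more arrays, and used limma 3.58.1 in R 4.3.3 (lmFit and eBayes with trend), with 1 mean per group over 14 contraction and control arrays, 9 residual and 7.06 prior degrees of freedom. A probe set bright in only 1 group could thus enter through that group, and could then hardly be called in the opposite direction. P-values were two-sided, with Benjamini-Hochberg adjustment over all probe sets tested, and the median residual SD was 0.325. The contrast between injuries used all 25 arrays, and again 24 without sample 436. On simulated data of this design, 35% of 100 probe sets changed by 1 on the log2 scale and 97% of 100 changed by 2 were recovered, with 4 false calls among 9033. The number of arrays limits the precision.

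Genes named were the 12 largest rises and falls among called genes with at least 2-fold change and no overlap of groups, up to 3 rises and 3 falls of each of 35 lists (864 genes, 737 on the array; where none was called, the 2 members with the largest difference), the 5 highest and 5 lowest of the contrast between injuries, and a set of representatives, of which Spp1 had no probe set with 1 symbol. Other list members were named after their values had been seen. The arrays, gene lists and tests were chosen with earlier results of these data known. Promoters came from a RefSeq table, in which 11 of the 14 called heat shock genes and 14 of the 19 called mitosis genes had an entry. Alternatives were other pseudocounts, normalizations, filters, sample sets, variance priors, array weights, thresholds and leaving out each array.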

Additional observations from a re-analysis of the deposited data

Results flagged for a closer look

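In the fit of all 25 arrays, the change between 1 and 3 days differed between contraction and freeze in 31 probe sets, by a test of the difference itself. The 10 genes given here are the 5 highest and 5 lowest of those called. Contraction minus freeze, the difference of the changes was -4.94 for Dnajb1, -3.49 for Mmp10, -2.93 for Gadd45g, -2.52 for Nfil3 and -2.50 for Ccn1 on the log2 scale. It was 4.34 for Arg1, 3.47 for Pdpn, 3.29 for Wdr92, 2.96 for Mmp9 and 2.56 for Slpi. The 5 negative values are of genes that stood high 1 day after contraction and low 1 day after freeze. Of the 5 positive ones, Slpi was also called higher at 3 days than at 1 day after contraction (1.51 ± 0.36, SE, adjusted p = 0.0165), with 2 of its 4 probe sets called. All 10 remained past the threshold without sample 436.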

How the results depend on the processing

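Leaving out 1 array gave 99 (without the 1-day array 463) to 437 (without control 3) probe sets called higher, against 382 with all, and 55 (without 463) to 332 (without the 3-day array 449) called lower, against 248. Without the 1-day array 421 the counts were 180 and 106, and without the 3-day array 435 they were 165 and 117. All 25 arrays gave 31 higher and 79 lower, and an adjusted p under 0.01 gave 157 and 90. The contrast between injuries called 31 probe sets with all 25 arrays, 157 without sample 436, 3 with the 11 arrays of the 4 groups alone, 19 with a pseudocount of 1 and 6 at an adjusted p under 0.01, and 1 (without the 1-day contraction array 463) to 157 (without sample 436) when 1 array was left out. A group left with 1 array was assumed to vary like the others. Of 91 named genes called between the days, 27 were called with all 25 arrays, 90 without sample 436, 43 without array 463, 57 without 435 and 64 without 421, and no sign changed. The share of calls that were higher was 60.6%, against 60.5% after quantile normalization and 59.3% after median centring. No paired analysis was run, because the groups share no replicate number. Each contraction sample at 1 and 3 days has a freeze sample of the same time with the next number, such as 435 and 436. Whether these are pairs was not tested, and the contrast between injuries treated them as unpaired. The cause of these shifts was not tested. Signals near the 20th percentile, such as those of Mmp10 after freeze or Cdk1 at 1 day, give folds that depend on the pseudocount.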
